A study of Mus musculus with 73 samples.

Results

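The 9 genes described here encode the parts of the major histocompatibility complex (MHC) class I presentation pathway and the inducible proteasome subunits that feed it. They are B2m, H2-K1, H2-D1, Tap1, Tap2, Tapbp, Psmb8, Psmb9 and Psmb10. They were taken by symbol, and all 9 were found among the 23994 gene rows of the expression table, over all 73 cells. The cells came from the right lung lobes of 1 Csf1r-GFP mouse on the B6 background, a 10-week adult, 7 days after pneumonectomy, the removal of the left lung. The reporter drives green fluorescent protein from Csf1r, a gene of monocytes and macrophages. Cells were sorted as positive for CD45, CSF1R-GFP and F4/80, with Ly6G named without a sign, and were captured singly on a microfluidic chip. Their polyadenylated RNA was amplified and sequenced. Unoperated lungs were not analysed here, and no value measures an effect of the operation. With 1 mouse and 1 group no statistical test was made, since cells are not replicates.

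MHC class I molecules display peptides from the inside of a cell to CD8 T cells. Each is a heavy chain, such as the products of H2-K1 and H2-D1, bound to beta-2-microglobulin, the product of B2m. Proteasomes cut proteins into peptides, the TAP transporter carries the peptides into the endoplasmic reticulum, and tapasin helps to load them. Interferon raises many of these genes in macrophages and replaces the constitutive catalytic proteasome subunits by inducible ones, which form the immunoproteasome.

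Of the 9 genes, 7 lie on mouse chromosome 17, from 33915899 (start of Tapbp) to 35267499 (end of H2-D1), a span of 1.352 Mb in the MHC region (build GRCm38, GENCODE M21 annotation). H2-K1 lies on the minus strand at chr17:33996017-34000347 and H2-D1 on the plus strand at chr17:35262730-35267499. Tapbp is at chr17:33915899-33929292, Psmb9 at chr17:34181987-34187764, Tap1 at chr17:34187553-34197225, Psmb8 at chr17:34197721-34201454 and Tap2 at chr17:34203527-34216321. B2m is on chromosome 2 (122147686 to 122153083) and Psmb10 on chromosome 8 (105935735 to 105938444). All 9 are annotated as protein coding.

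The heavy chain genes H2-K1 and H2-D1 showed the highest rank correlation of any pair of the 9, so the sequence before their RefSeq starts is shown. Both carry a nearly identical block of 30 bases, read 5′ to 3′ on the strand of the gene (RefSeq, build GRCm38.p6). The capitals at the left mark 2 overlapping matches, 1 on each strand, to an NF-kappaB-like pattern (GGGA, any 3 bases, then CCC). Those at the right mark a match to the pattern GAANNGAAA on the reverse strand. The second pattern resembles the interferon-stimulated response element.
H2-K1, chr17:34000429-34000458, minus strand: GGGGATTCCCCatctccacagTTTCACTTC
H2-D1, chr17:35262923-35262952, plus strand: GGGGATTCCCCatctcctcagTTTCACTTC
The block of H2-D1 lies before the RefSeq start, 35263094, and inside the longer gene span that GENCODE gives. The blocks differ by 1 substitution, A18T, with the base of H2-K1 first and positions counted from 1 at the 5′ end. In H2-K1 the block lies within the 250 bases before the annotated start, shown in full with the same capitals.
H2-K1 upstream, chr17:34000348-34000597, minus strand: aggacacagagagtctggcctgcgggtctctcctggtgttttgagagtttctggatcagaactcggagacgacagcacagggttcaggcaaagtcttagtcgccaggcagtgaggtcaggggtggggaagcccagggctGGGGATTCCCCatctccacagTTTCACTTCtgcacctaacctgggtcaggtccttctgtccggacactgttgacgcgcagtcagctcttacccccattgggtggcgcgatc
The windows before the starts of both genes aligned over 177 columns, of which 161 were identical (90.96%).

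Windows of 250 bases before the RefSeq start were at hand for 8 of the 9 genes (Tap2 had no entry), and 6 patterns were searched on both strands. For H2-D1, Psmb8, Psmb9 and Tapbp the whole window lies inside the gene span of GENCODE, and for Psmb10 52 bases of it do. NF-kappaB-like matches were found in 2 of 8 genes (H2-K1 and H2-D1), against 4.77% of all 32851 windows. Matches to GAANNGAAA were found in the same 2 genes, against 6.31% of windows. Matches to both patterns lie in the block of 30 bases that the 2 genes share, so the genes are not separate cases. A gene was counted if any of its windows had a match, and H2-K1 had 2 windows. The GAS pattern TTCNNNGAA was found in 1 of 8 (Psmb8), against 7.02% of windows. CCAAT was found in 6 of 8 genes and in 33.8% of windows, TGACG, the core of a cyclic AMP response element, in 5 of 8 and 17.8%, and TATAAA in 3 of 8 and 12.4%. The windows of Tap1 and Psmb9 overlap, and their CCAAT and TGACG matches are the same bases, read on opposite strands. H2-K1 and H2-D1 carry a match to each pattern at the same distance from their shared block. These pairs of genes are therefore not separate cases for CCAAT or TGACG either. A match describes letters and does not show that a factor binds there.

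The files gave an estimated 347003 to 3485929 mouse fragments per cell (median 1408833) and 1044 to 3745 genes detected at an FPKM of 1 or more (median 2290). FPKM is fragments scaled to transcript length and to library size, so levels can be compared between genes. Of the genes behind the sort, Ptprc (CD45) was found in 69 cells, Csf1r in 65 and Emr1 (F4/80) in 41. Clustering on genes that did not include the 9 gave 12 alveolar-macrophage-like cells, 6 interstitial-macrophage-like cells, 5 cells left unnamed and 50 classical-monocyte-like cells. The unnamed cluster was led by class II genes together with the cell division genes Stmn1, Cdca8 and Rrm2. In 4 cells, at least 3 markers of endothelium or of alveolar epithelium reached an FPKM of 10.

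The 3 class I chain genes were detected in nearly every cell, and the levels of the other 6 were lower and more uneven. B2m had a lowest FPKM of 127, a median of 2039 and a highest of 6517 over the 73 cells, all with detection. Its mean, 2330 ± 1337 (SD over cells), was the 15th highest of all genes. H2-D1 was also detected in 73 cells, with FPKM from 24.6 through a median of 505 to 3196. H2-K1 was detected in 71 cells (97.3%, exact 95% interval 90.5 to 99.7), with FPKM from 0.209 through 237 to 1445. Intervals here and below cover counting error only.

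B2m exceeded H2-D1 in 70 of 73 cells, and this was the only pair of neighbours in the order of medians whose quartile ranges did not overlap. The ratio of B2m to the sum of H2-K1 and H2-D1 had a median of 2.91 and was above 1 in 68 cells. It ran from 0.171 to 27.5. H2-D1 exceeded H2-K1 in 57 cells and was lower in 16, and the median log2 ratio of H2-K1 to H2-D1 was -1.23. The genes share sequence, and 8.79% of 50-base stretches of H2-K1 transcripts and 14.3% of those of H2-D1 also occur in other genes. The authors' counting could therefore split reads between them and other class I genes. H2-L, another class I gene, had a value above 0 in 68 cells, with a median of 0.0011 estimated fragments over the 73 cells. The sources used here do not say whether counting used strand.

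The transporter and loading genes were patchier. Tapbp, which encodes tapasin, was detected in 48 cells (65.8%, interval 53.7 to 76.5), with a median FPKM of 9.50 and a highest of 383. Tap1, a chain of the peptide transporter, was detected in 17 cells (23.3%, interval 14.2 to 34.6) and reached 326. Tap2, its partner chain, was detected in 6 cells (8.22%, interval 3.08 to 17.04) and reached 37.9. Both transporter chains were detected together in 2 cells, against 1.397 if their detection were independent.

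The inducible proteasome subunits were as uneven. Psmb8 was detected in 50 cells (68.5%, interval 56.6 to 78.9), with a median FPKM of 31.4 and a highest of 709.8. Psmb10 was detected in 36 cells (49.3%, interval 37.4 to 61.3), with a median of 0.752 and a highest of 667. Psmb9 was detected in 20 cells (27.4%, interval 17.6 to 39.1) and reached 447. All 3 inducible subunits were detected in 9 cells, 2 of them in 25, 1 in 29 and none in 10. Patchy detection was not particular to these genes. Of 12 housekeeping genes, 9 were detected in at least 50% of the cells, with a median of 69 cells. Among them, Hprt was detected in 38 cells, Pgk1 in 33, Sdha in 29 and Tbp, the lowest, in 10. How far missed transcripts lower these counts was not tested.

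Neighbours lower in the order did not separate from each other. Psmb8 exceeded Tapbp in 37 cells and was lower in 32. Psmb9 exceeded Tap1 in 19 and was lower in 17. Psmb10 exceeded Psmb9 in 33 and was lower in 17. Quartile ranges overlapped for all these pairs.

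**Figure D1:**
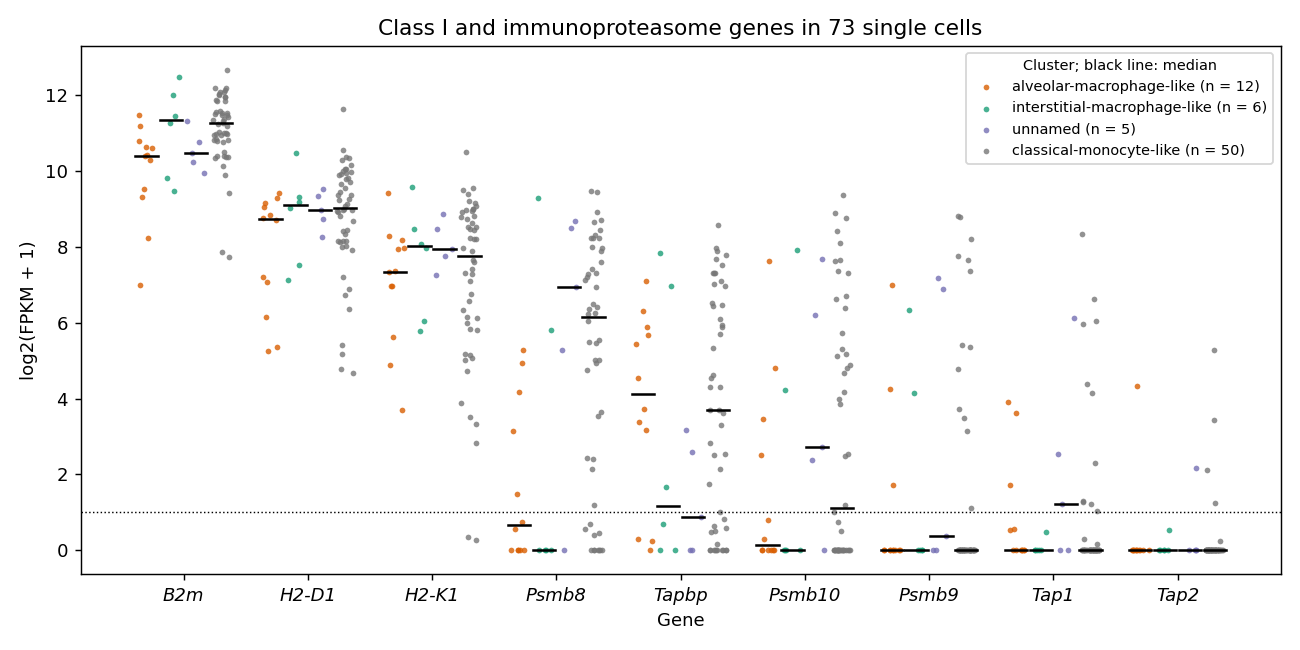
Level of each of the 9 genes, as log2(FPKM + 1) on the vertical axis, with 1 point per cell and a black line at the median of each cluster; the dotted line is the detection threshold at an FPKM of 1. B2m sits highest, from an FPKM of 127 to 6517, while most cells lie at or near 0 for Psmb9, Tap1 and Tap2.

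No cell had all 9 genes detected, and 0 of 73 allows a share of up to 4.11% (3 counts of the total). Tap1 and Tap2 were detected together in only 2 cells, so at most 2 cells could have had all 9. Counting any value above 0, 1 cell had all 9 (1.37%). A cell had a median of 5 of the 9 genes, with a range from 3 to 8. Exactly 5 were detected in 23 cells, 4 in 17 cells, 6 in 19 cells, 7 in 10 cells, 8 in 3 cells and 3 in 1 cell. With every cell thinned to the same 347003 fragments, Psmb8 was detected in 53 cells, Tapbp in 47, Psmb10 in 37, Psmb9 in 20, Tap1 in 16 and Tap2 in 6. The counts of cells moved by at most 3. Thinned values were scaled back up, so a kept fragment can carry a low value past the threshold. Detection of Psmb8 and Psmb10 rose in this way, and the shift does not measure how far detection depends on depth.

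The 3 cells with the highest mean log2(FPKM + 1) over the 9 genes were classical-monocyte-like, and so were the 3 with the lowest. Cell 1, with the highest mean (6.70), had FPKM of 2425 for B2m, 1063 for H2-D1, 570 for H2-K1, 294 for Psmb9 and 171 for Psmb8, and Tap1 and Tap2 at 0. Cell 71 (6.68) had 667 for Psmb10 and 447 for Psmb9, the highest values of both genes. Cell 27 (6.43) had the highest Tap1, 326. At the other end, cell 46 (2.39) had 1316 for B2m with Tapbp and all 3 inducible subunits at 0. Cell 70 (2.42) had B2m at 683, H2-D1 at 24.6 and Tap1 at 98.5.

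Across the 73 cells the genes moved together only weakly. These are rank correlations over cells that share a mouse, a chip and a per-cell scaling, and they are given as descriptions. The 36 pairs among the 9 genes had a median Spearman rho of 0.06, with 66.7% positive, against a median of 0.06 and 66.3% positive over all 824970 pairs of the 1285 genes detected in at least 50% of the cells. Only 5 members (B2m, H2-D1, H2-K1, Psmb8, Tapbp) met that same rule of detection, so their pairs are the nearer comparison. Of those 10 pairs, 9 were positive (90%), with a median of 0.14. The pairs were not matched to the other genes for level, and the part of level was not tested. By mean FPKM, B2m ranked 15th of all genes, H2-D1 143rd and H2-K1 271st. H2-K1 with H2-D1 gave 0.34, and the part of their shared sequence in this value was not tested. B2m with Psmb8 gave 0.32, B2m with H2-D1 0.29 and H2-D1 with Psmb8 0.28. B2m with H2-K1 gave 0.10. The lowest was Tap1 with Tapbp, -0.14. Within the 50 classical-monocyte-like cells alone, rho was 0.15 for B2m with Psmb8 and 0.26 for B2m with H2-D1. It was 0.32 there for H2-D1 with Psmb8 and 0.35 for H2-K1 with H2-D1.

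**Figure D2:**
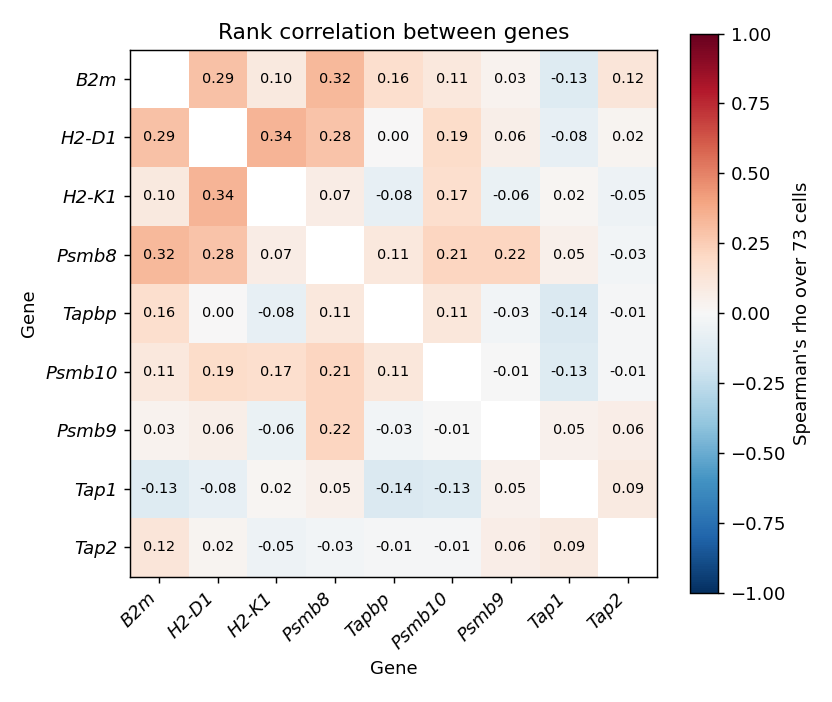
Spearman's rho between each pair of the 9 genes over 73 cells, as colour and as the printed number; the diagonal is blank. The upper left block of B2m, H2-D1 and H2-K1 holds the highest value, 0.34, and Tap1 gives near-zero or negative values with most genes, the lowest being -0.14 with Tapbp.

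Tap1 and Psmb9 are neighbours on opposite strands, and 225 bases lie between their RefSeq starts, at 34187556 and 34187330. In GENCODE the spans of the 2 genes overlap by 212 bases. They were detected in the same cell in 5 cells, against 4.66 if detection were independent, and their rho was 0.05. Psmb8 and Psmb9, which both encode inducible subunits, were detected together in 18 cells, against 13.7 if independent (rho 0.22). The other pairs of inducible subunits were near the number for independent detection, 25 against 24.7 for Psmb8 with Psmb10 and 9 against 9.86 for Psmb9 with Psmb10. Tapbp and Psmb10 were detected together in 29 cells, against 23.7, and Tap1 and Tapbp in 8 cells, against 11.2. The list of the 10 genes whose level over cells was most like the mean of the 9, out of 1280 genes with a median rho of 0.07, was Nadk (0.42), Tspo (0.41), Gas5 (0.40), Ppp1ca (0.39), Tra2b (0.39), Sod1 (0.38), Coro1a (0.38), Eif3k (0.37), Hspa8 (0.36) and Eno1 (0.36). The mean of the 9 also had a rho of 0.28 with the number of mouse fragments and 0.31 with the ratio of mouse fragments to those of the spike-in, and their part in these likenesses was not tested. Its rho was 0.24 with the class II level and 0.01 with the level of the interferon response genes.

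Alveolar-macrophage-like cells had less Psmb8 than classical-monocyte-like cells. A difference is the mean log2(FPKM + 1) of one cluster minus that of the other, and a size of 1 or more is counted as called, without a test. Psmb8 had FPKM of 0 at the lowest, 0.577 at the median and 37.6 at the highest in the 12 alveolar-macrophage-like cells, against 0, 69.9 and 709.8 in the 50 classical-monocyte-like cells. It was found in 5 of 12 alveolar-macrophage-like cells, against 39 of the 50 classical-monocyte-like ones, a difference of -3.37. The highest alveolar-macrophage-like value lay below the median of the classical-monocyte-like cells, and both groups had cells at 0. Leaving out 1 cell at a time gave -3.69 to -3.21.

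Of the 9 genes, 8 passed the filter of detection in at least 8 cells (Tap2, in 6 cells, did not), and 3 of the 9 were lower by 1 or more in the alveolar-macrophage-like cells and 0 higher. Over all 6151 genes that passed the filter, 28.3% differed by 1 or more, 9.12% lower and 19.2% higher, and the median difference was 0.13. The other called genes were B2m, at -1.11, and Psmb10, at -1.36. B2m averaged an FPKM of 1327 ± 797 in alveolar-macrophage-like cells, against 2591 ± 1294 in classical-monocyte-like cells (SD over cells), and its difference was -0.84 without cell 91. Psmb10 was found in 4 of 12 alveolar-macrophage-like cells, against 26 of the 50 classical-monocyte-like ones. Its highest FPKM was 198 in alveolar-macrophage-like cells and 667 in classical-monocyte-like cells. The differences were -0.91 for H2-D1, -0.43 for Psmb9, -0.03 for H2-K1, 0.00 for Tap1, 0.08 for Tapbp and 0.12 for Tap2. H2-D1 passed the size of 1, at -1.01, when mouse FPKM were rescaled to one total per cell, and at -1.05 without cell 19. The mean of the 9 was 3.82 ± 0.40 in alveolar-macrophage-like cells and 4.59 ± 1.08 in classical-monocyte-like cells. Alveolar-macrophage-like cells had fewer fragments at the median, 1057394 against 1392921 in classical-monocyte-like cells, and more genes detected, 2739.5 against 2168.5 in classical-monocyte-like cells. Thinned to one depth, the Psmb8 difference was -3.21, and the part of the number of genes detected was not tested.

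Genes around the pathway, from lists set alongside the 9, differed between the same clusters in both directions. Of 6 loading chaperones and trimming genes, 4 were higher in the alveolar-macrophage-like cells by 1 or more and 0 lower. Calr, which encodes the chaperone calreticulin, averaged 376 ± 207 in alveolar-macrophage-like cells, all 12 with detection, against 88.2 ± 151 in classical-monocyte-like cells, 35 of 50 with detection, a difference of 4.24. Hspa5 differed by 2.46, Pdia3 by 2.32 and Canx by 1.67, while Erap1 differed by -0.62 and Tapbpl by -0.14. Higher levels of this list were not particular to this cluster. Against the same classical-monocyte-like cells, 3 of the 6 were higher by 1 or more in interstitial-macrophage-like cells and 4 in unnamed cells. In both, 0 were lower by 1 or more. Over all genes, 13.4% were higher in interstitial-macrophage-like cells and 31% in unnamed cells. Of 19 regulators of class I and of interferon signalling, 17 passed the filter, and 4 were lower and 0 higher in the alveolar-macrophage-like cells. Ifngr1, a chain of the interferon gamma receptor, was found in 8 of 12 alveolar-macrophage-like cells, against 49 of the 50 classical-monocyte-like ones, a difference of -4.14. Its median FPKM was 4.67 in alveolar-macrophage-like cells and 152 in classical-monocyte-like cells. Irf1, an interferon-induced transcription factor, was found in 2 of 12 alveolar-macrophage-like cells, against 24 of the 50 classical-monocyte-like ones, with a difference of -1.91. Nlrc5, a transactivator of class I genes, was detected in 8 of 73 cells, all of them classical-monocyte-like, the cluster that held 68.5% of cells. A count of 0 of 12 alveolar-macrophage-like cells still allows a share of up to 25% (3 counts of 12). Of 22 interferon response genes 13 passed the filter, and 5 were lower and 0 higher. Of 12 housekeeping genes, 3 were higher and 1 lower. Of 11 proteasome core genes, 2 were higher and 1 lower, and of 5 proteasome activator and assembly genes none passed 1 in either direction. Of 10 class II genes 6 passed the filter, and 5 were lower. Of 23 other class I and class I-like genes 9 passed the filter, with 2 higher and 2 lower. One of the lower, H2-T23, was found in 9 of 12 alveolar-macrophage-like cells, against 41 of the 50 classical-monocyte-like ones, with a difference of -1.38. The other, H2-L, differed by -1.25, and its fragments were estimated in fractions, as given above.

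Interstitial-macrophage-like cells showed 1 of the 9 genes past the size of 1, Psmb8, at -2.54, against 29.6% of all genes differing by 1 or more (13.4% higher, 16.2% lower). Psmb8 was 0 in 4 of the 6 interstitial-macrophage-like cells and had FPKM of 55.2 and 630 in the other 2, and 39 of 50 classical-monocyte-like cells had it detected. Without cell 32, the cell at 630, the difference was -3.90. Psmb10 differed by -0.96, Tapbp by -0.88, Tap1 by -0.78, H2-K1 by 0.57, B2m by -0.02 and H2-D1 by 0.01. With 6 cells, single ones decided which genes passed 1. Psmb10 was at -2.14 without cell 11 and -0.56 without cell 15. Tapbp was at -1.88 without cell 50 and -0.31 without cell 11, and H2-K1 at 0.19 without cell 11 and 0.95 without cell 50. Tap1 and Tap2 were detected in 0 of these 6 cells (3 counts of 6, the limit that 0 allows, make 50%), and the highest FPKM among them were 0.388 for Tap1 and 0.436 for Tap2.

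In the 5 unnamed cells, 3 of the 9 genes passed the size of 1, and 2 of them were higher. These cells had deeper libraries, with a median of 3219634 fragments against 1392921 in classical-monocyte-like cells, and the differences below are also given with every cell thinned to one depth. Psmb9 was higher than in classical-monocyte-like cells by 1.38 and Tap1 by 1.11, and Tapbp differed by -2.41, against 36.3% of all genes past the size of 1 in either direction (31% higher, 5.28% lower). Thinned to one depth they were 1.30 for Psmb9, 1.25 for Tap1 and -2.52 for Tapbp. Psmb8 had FPKM of 362, 121, 409.5, 0 and 37.8 in unnamed cells 25, 30, 37, 42 and 84, and Tapbp had, in the same order, 5.05, 0.830, 0, 8.09 and 0. Psmb9 had 0.290, 0, 119, 0 and 145, and was thus high in 2 of the 5. Tap1 had 4.76, 68.4, 0, 0 and 1.34. The Tap1 difference was 0.08 without cell 30 and the Psmb9 difference 0.30 without cell 84, so 1 cell decided each. Without cell 30 the Psmb9 difference was 2.102. H2-K1 differed by 0.98, Psmb8 by 0.82, Psmb10 by 0.81, B2m by -0.55 and H2-D1 by 0.21. Psmb8 was at 0.12 without cell 37 and 2.29 without cell 42. Psmb10 was at -0.16 without cell 37 and 1.76 without cell 30, so its direction rested on 1 cell.

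**Figure D3:**
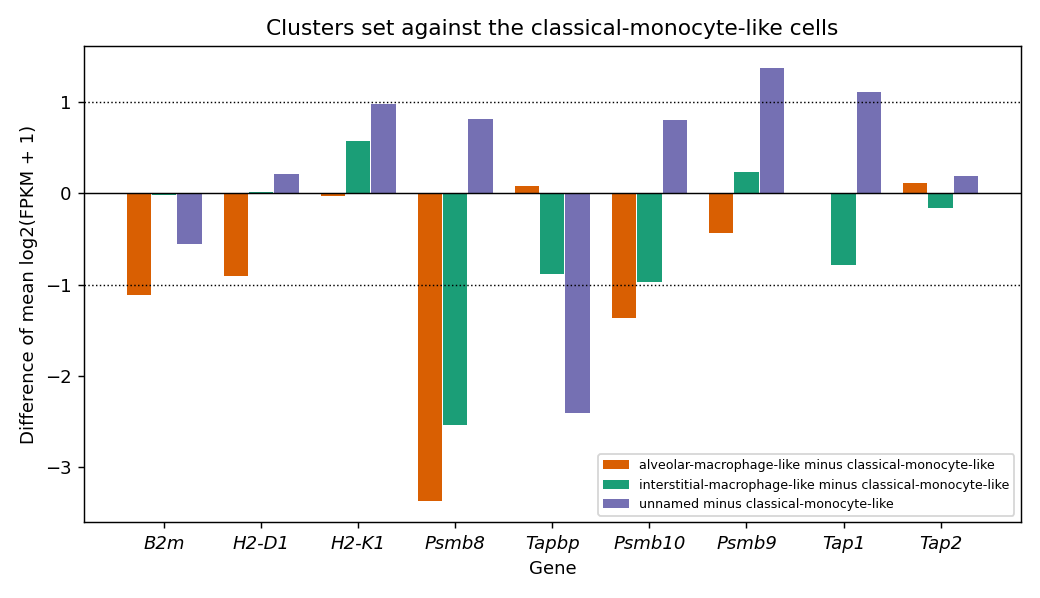
Difference of mean log2(FPKM + 1) for each gene between a cluster and the classical-monocyte-like cells, as bars from 0; dotted lines mark a size of 1. Psmb8 is the lowest bar in the alveolar-macrophage-like cells, at -3.37, and Tapbp the lowest in the unnamed cells, at -2.41.

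Class II molecules present peptides taken up from outside the cell, to CD4 T cells. Cells were called class II positive when at least 3 of H2-Aa, H2-Ab1, H2-Eb1 and Cd74 reached an FPKM of 10. That gave 21 class II positive cells and 52 class II negative cells. The 52 included all 12 alveolar-macrophage-like cells. The mean of the 9 was 4.58 ± 0.94 in class II positive cells and 4.39 ± 1.02 in class II negative cells, a difference of 0.19 that is smaller than the spread over cells of either group. Of the 9 genes, 1 was higher by 1 or more, Psmb8 at 1.18, against 10.8% of all genes either way (6.45% higher, 4.31% lower). It was detected in 16 of 21 class II positive cells and in 34 of 52 class II negative cells, and the difference was 0.75 without the 4 cells with endothelial or epithelial markers, 0.97 without cell 22 and 0.99 with cells thinned to one depth, all under the size of 1. H2-K1 differed by 0.67, B2m by 0.37, H2-D1 by 0.18 and Tapbp by -0.76, which was -1.01 without cell 16.

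Within the classical-monocyte-like cells alone, Psmb8 was again higher in class II positive cells. There Psmb8 was detected in all 12 class II positive cells, with FPKM of 1.27 at the lowest, 111 at the median and 709.8 at the highest, against 27 of 38 class II negative cells, with FPKM of 0, 44.2 and 484. The difference was 2.02 (1.78 thinned to one depth), with 15.2% of all genes past 1 in either direction, 10.4% higher and 4.83% lower. Leaving out 1 cell at a time gave 1.75 to 2.51, and the difference was 1.62 without the cells with endothelial or epithelial markers. The groups overlapped widely above 0. Psmb8 lies near the class II genes in the MHC region, as do its neighbours Psmb9, Tap1 and Tap2. The part of position in the Psmb8 difference was not tested. In the same cells 0 of the other 8 genes differed by 1 or more, and Psmb10, at -0.48, passed it at -1.10 without cell 71.

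**Figure D4:**
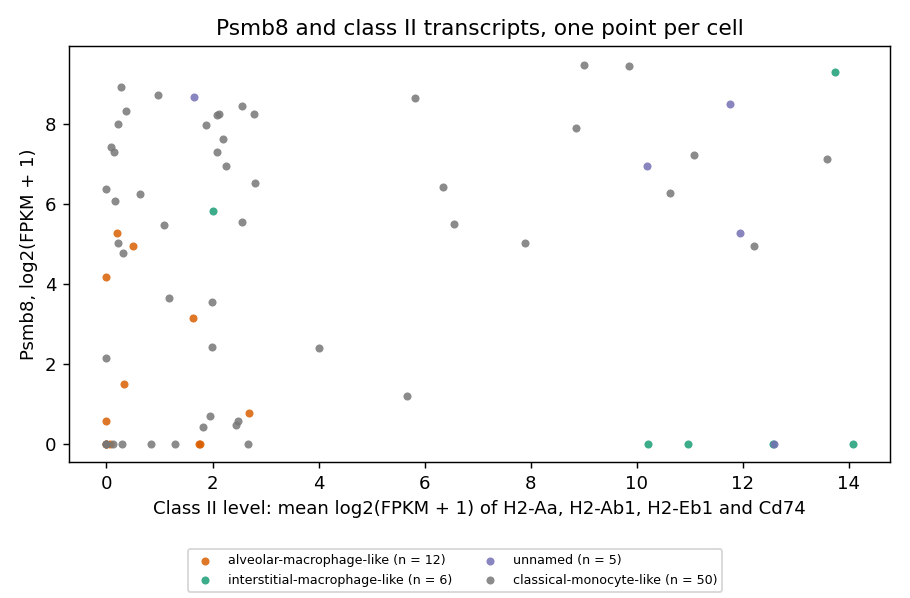
Psmb8 as log2(FPKM + 1) against the mean log2(FPKM + 1) of 4 class II genes, 1 point per cell coloured by cluster. The 12 class II positive classical-monocyte-like cells all have Psmb8 above 0, while 4 of the 6 interstitial-macrophage-like cells have high class II levels with Psmb8 at 0.

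The inducible subunits made up a varying part of the catalytic subunit transcripts. The share is the sum of FPKM of Psmb8, Psmb9 and Psmb10 as a percent of that sum plus Psmb5, Psmb6 and Psmb7, which encode the constitutive subunits they replace. Over all cells its median was 52.1%, with quartiles of 8.41% and 88.8%, and it was above 50% in 38 cells, 100% in 12 and 0% in 7. The median was 14.7% in alveolar-macrophage-like cells, 46.2% in interstitial-macrophage-like cells, 61.3% in unnamed cells and 64.995% in classical-monocyte-like cells. Of summed FPKM, the inducible subunits made up 7.77% in alveolar-macrophage-like cells and 52.2% in classical-monocyte-like cells. Without cell 6, the alveolar-macrophage-like value was 13.6%, and without cell 29 it was 4.74%. Of the cluster medians, that of the interstitial-macrophage-like cells ran from 30.7% without cell 11 to 61.7% without cell 15. The median was 62.99% in class II positive cells and 43.7% in class II negative cells. All 12 alveolar-macrophage-like cells were class II negative, so these groups also differed in cluster make-up, whose part was not tested.

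Within each pair of subunits, the levels over cells had a rho near 0 or slightly below it. Psmb8 was detected without Psmb5 in 22 cells, both in 28, Psmb5 alone in 12 and neither in 11, with a rho of -0.06. Psmb9 was detected without Psmb6 in 11 cells, both in 9, Psmb6 alone in 34 and neither in 19, with a rho of -0.17. Psmb10 was detected without Psmb7 in 19 cells, both in 17, Psmb7 alone in 17 and neither in 20, with a rho of -0.00. Mean FPKM was 117 ± 174 for Psmb8 against 78.2 ± 215 for Psmb5, 32.99 ± 89.5 for Psmb9 against 125 ± 251 for Psmb6, and 58.6 ± 124 for Psmb10 against 64.8 ± 144 for Psmb7 (SD over 73 cells).

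**Figure D5:**
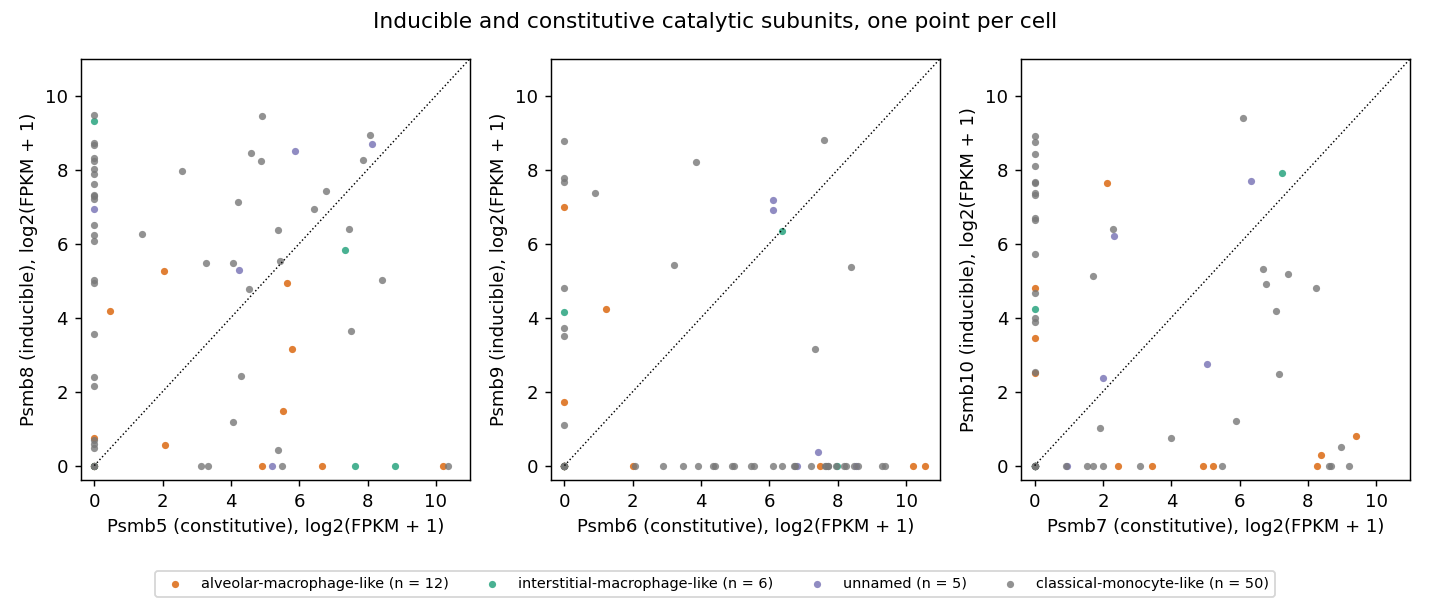
Inducible subunits (vertical) against the constitutive subunits they replace (horizontal), as log2(FPKM + 1), 1 point per cell coloured by cluster; the dotted line marks equal levels. Many cells lie on an axis, having one of the pair only, as for Psmb6 detected without Psmb9 in 34 cells.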

How the data were processed

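Single cells were captured on a Fluidigm C1 chip and amplified with SMARTer chemistry, per the labels' protocols. The submitters' processing notes name the build mm10 and, as tools, Cufflinks 2.2.1, Cuffnorm, TopHat2 2.1.0 and CASAVA 1.8. Which annotation and cell filter were used is not given in the sources used here. FPKM in the deposited table were normalised by the authors' tools. In the other deposited table the values are a signal, that is, counts of fragments scaled per cell by the authors' tools. Of its low values, 99.6% lay within 0.1 of a whole step of their cell, which gave the fragments per cell. No count model was fitted. Spike-in rows were left out, and the 92 for ERCC held only 0.

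Values were analysed as log2(FPKM + 1), with Python 3.11.15, pandas 2.3.3, scipy 1.17.1 and scikit-learn 1.9.0. The clusters came from the 1000 most variable genes among those detected in at least 8 cells, without the listed genes, by 10 principal components and Ward's method. The cut of 2 to 6 clusters with the highest silhouette and at least 5 cells in each was taken. A cluster was named from at least 3 markers among its 10 leading genes. An exception was made for the unnamed cluster only, which held 3 markers of dividing cells but was led by class II genes. Class II genes were also among the leading genes of the interstitial-macrophage-like cluster, which kept its name. No doublet caller was run. The named genes are the 9, the fixed lists, the 10 genes most like the mean of the 9 and the 3 cells at each end. The members and lists were chosen with earlier results of these data known. Difference calculations were tested on simulated data. Shares carry exact Clopper-Pearson 95% intervals, and for a count of 0 the limit given is 3 counts of the total.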

Additional observations from a re-analysis of the deposited data

How the results depend on the processing

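No paired analysis was possible because all 73 cells form 1 group. The order of mean levels over the 9 genes had a rank correlation of 0.93 with the reported order in the deposited count table, which is not per length. The difference of the mean of the 9 between alveolar-macrophage-like and classical-monocyte-like cells was -0.78 (leaving out 1 cell at a time, -0.86 to -0.74). The class II positive minus class II negative difference was 0.19 (0.09 to 0.29, without cells 71 and 26 in turn), and 0.09 with all 4 class II genes required. Leaving out single cells was chosen after seeing the data. Genes differing by 1 or more numbered 1889 without the low-level filter against 1742 with it, and 681 against 662 for class II. Without the filter no cut of the clustering had at least 5 cells in each cluster. None of these differences of the mean changed sign. Of the 45 differences of single genes, 14 changed sign when some 1 cell was left out, 2 when thinned, 2 when rescaled and 4 without cells with other lineage markers, none of them among the 9 called. Rescaling mouse FPKM to one total per cell called 4 of the 9 genes in each of the 3 cluster comparisons, where 3, 1 and 3 were called as reported, and thinning to one depth called 3, 2 and 4, and 0 in place of 1 for class II. At an FPKM of 10 or more, Tap1 was detected in 12.3% of cells, Tap2 in 2.74% and Tapbp in 49.3%. At any value above 0, Tapbp was detected in 79.5% and H2-K1 in 100%.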
